A study of Caenorhabditis elegans with 12 samples.

Results

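Whole Caenorhabditis elegans exposed to aged silver nanoparticles were compared with unexposed control animals across the genes of the Affymetrix C. elegans Genome Array. The comparison takes the 3 arrays of aged-particle animals and the 3 control arrays, 6 of the 12 arrays of the study, and all 22548 of 22625 probe sets that are not array controls. The 6 remaining arrays belong to animals exposed to pristine silver particles or to silver nitrate, with 3 arrays each, and they entered the model to estimate the spread between replicates. All animals were wild-type N2 (Bristol). They were 12 h old L1 larvae at the start and were kept for 48 h under a control treatment or in a solution of 1 of the 3 silver forms. The aged particles were silver nanomaterials that had been aged artificially, which the study's title calls sulfidized. Each silver form was given at its own EC30 for reproduction, the concentration with a 30% effect on that trait, so the 3 exposures were matched on this effect and not on silver dose. Each RNA sample came from a population of 2000 to 3000 animals at a single time, and 100 ng of Trizol-extracted total RNA was labelled with biotin. Nothing in the labels says that replicates came from separate cultures. The p-values below therefore rest on the spread between these samples, which may be technical. In whole animals, fewer cells of a type and less RNA per cell cannot be told apart.

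The body of C. elegans is enclosed by a cuticle that the epidermis builds anew before each larval molt. It consists largely of collagens, cross-linked in layers and furrows, together with cuticlins and other secreted proteins. The worm's hedgehog-related proteins, among them the ground-like, groundhog and warthog families, are mostly made by cuticle-forming tissues, and many genes of this kind are expressed in a wave during each molting cycle. The lining of the pharynx is a cuticle of its own, with which the abu, pqn and idpp genes are associated. The epidermis also secretes antimicrobial peptides, among them the caenacins, coded by cnc genes, and a cluster of nlp genes.

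Signals are deposited intensities scaled here to a common array median, and values below 16 were set to 16 (4 on the log2 scale), a floor under which dim probe sets are not told apart. Between 13.75% and 15.84% of probe sets lay at the floor in each of the 6 arrays. Array medians before scaling were 119.7 to 135.5 signal units over the 12 arrays. Across probe sets, which are not independent, r lay between 0.974 and 0.982 for the 6 pairs within groups and between 0.970 and 0.980 for the 9 pairs of an aged-particle and a control array. The 3′ minus 5′ log2 signal of 5 array control genes, a measure of RNA integrity, was 1.28 ± 0.18 in aged-particle arrays and 1.22 ± 0.20 in control arrays (SD, n = 3 each). The difference of 0.06 had a two-sided exact permutation p of 0.6, where 3 against 3 arrays cannot go below 0.1. Differences are aged particles minus control on the log2 scale, ± the standard error of the limma model.

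Differences were small for most genes. Of 17118 genes, 7043 lay higher with aged particles and 9223 lower, and the median difference was −0.02. The upper tail was the heavier. Without a brightness filter, 235 probe sets lay more than 1 log2 unit higher and 150 more than 1 log2 unit lower. For genes these counts were 193 and 101. Of the 11274 probe sets above the median brightness, 66 lay that far higher and 4 that far lower. Brightness was averaged over all arrays, aged-particle arrays included, so this filter favours probe sets raised there over lowered ones. How much it adds to the contrast of 66 and 4 was not tested. Over all probe sets, limma with Benjamini-Hochberg adjustment called 2, which is 0.00887% of those tested. Another 13 were called when the fit was confined to the probe sets above median brightness, 0.115% of those. At an unadjusted p under 0.05, 785 probe sets were higher (3.48%) and 1084 lower (4.81%).

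**Figure D1:**
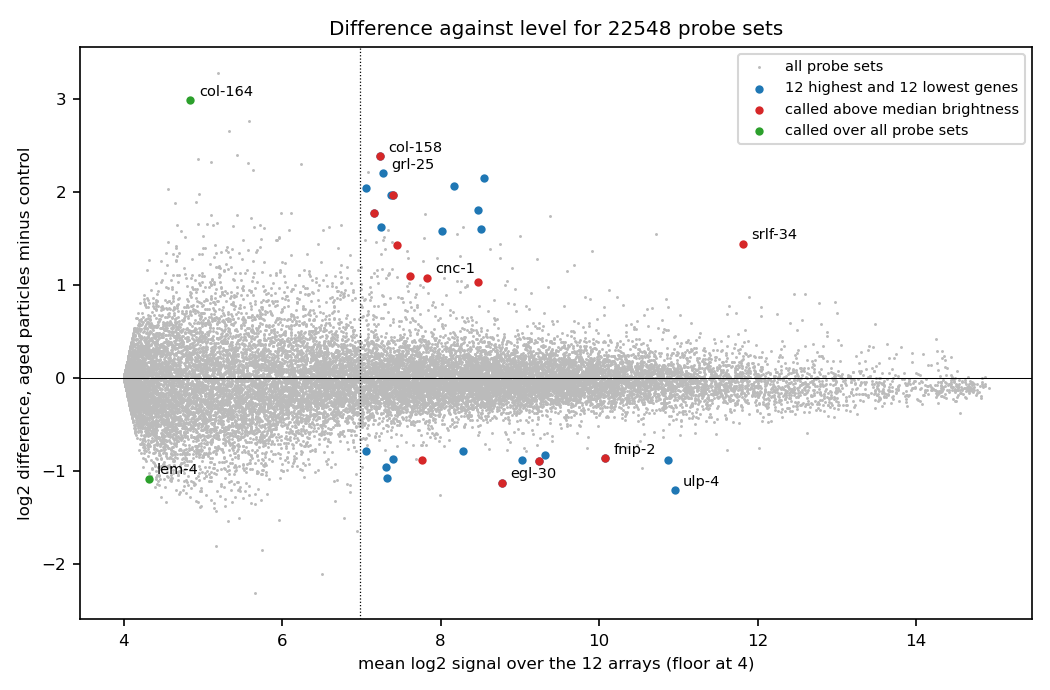
Log2 difference (aged particles minus control) of each of 22548 probe sets against its mean log2 signal over the 12 arrays, with the median level as a dotted line. The called probe set of the collagen col-164 lies at 2.99 and that of lem-4 at −1.08, both left of the dotted line, and srlf-34 is the brightest of those called above median brightness.

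The cuticle collagen gene col-164 rose in animals exposed to aged particles. Its signals were 16, 23.7 and 16 in control arrays 1 to 3, 2 of them at the floor, and 118.8, 162 and 159 in the aged-particle arrays. All 3 aged-particle arrays lay far above every control array. The increase was at least 7.96-fold (2.99 ± 0.16, limma adjusted p = 0.000444), and each of the 6 pristine-particle and silver nitrate arrays had col-164 at the floor. Those 6 arrays add no spread to the model. With the 6 compared arrays alone the adjusted p was 0.149, with a replicate block there it was 0.571, and in the other 18 of 20 alternatives col-164 passed.

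A probe set of lem-4 fell. Proteins with a LEM domain typically sit at the inner nuclear membrane. Signals were 34.9, 33.6 and 39.8 in control arrays and 18.5, 16 and 16.7 in aged-particle arrays. The groups did not overlap, but all values were close to the floor. The decrease was at least 2.12-fold (−1.08 ± 0.07, limma adjusted p = 0.0013). The gene's other probe sets differed by 0.21 and 0.37 with unadjusted limma p of 0.344 and 0.48, so its probe sets do not move together. This call was lost when just the 6 compared arrays were fitted (adjusted p = 0.172), with a trend and robust fit (0.0652), with a floor of 1 (0.655) with the replicate block in those 6 arrays (0.571) and with a floor of 64, which removes the difference, and the adjusted p ranged from 9.54e-05 to 1 over 20 alternatives.

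Among probe sets above median brightness, 3 more collagens rose. The 13 calls in this fit depended on single arrays. Leaving out control replicate 1, 2 or 3 gave 12, 8 or 1 calls, and leaving out aged replicate 1, 2 or 3 gave 15, 0 or 7. With the 6 compared arrays alone it was 28, which took in 11 of the 13. These alternatives were chosen after seeing the data. The collagen col-158 had signals of 209, 481 and 254 in control arrays and 1232, 1615 and 1837 in aged-particle arrays. Even its highest control array lay well under the lowest aged-particle array. The increase was 5.23-fold (2.39 ± 0.37, limma adjusted p above median brightness = 0.0162). The collagen col-84 went from 215, 274 and 223 to 684, 1075 and 1063, a 3.9-fold increase (1.97 ± 0.40, limma adjusted p above median brightness = 0.0364). For col-14 the control signals were 431, 329.8 and 395 and the aged-particle signals 761, 966 and 653. Its groups were closer but did not overlap, and it rose 2.04-fold (1.03 ± 0.17, limma adjusted p above median brightness = 0.0273). Over all probe sets these adjusted p-values were 0.17, 0.245 and 0.177. Brightness was averaged over all 12 arrays, so high aged-particle values help a probe set into this fit. For col-158, pristine and silver nitrate levels lay 4.47 and 6.59 below the aged-particle level, and for col-84 2.90 and 4.95 below. Both may have entered only through their aged-particle arrays, so their adjusted p-values in this fit are no independent support. For col-14 these distances were smaller, 1.66 and 1.84. Entry without the aged-particle values was not tested.

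The abu-8 gene, a member of a family found in the pharyngeal cuticle, rose 3.41-fold in the same fit (1.77 ± 0.33, limma adjusted p above median brightness = 0.0265). Its signals were 157, 65.9 and 102 in control arrays and 294, 392 and 362 in aged-particle arrays. The lowest aged-particle array stood clear of the highest control array. A brighter probe set of the gene differed by 1.37 in the same direction. The probe sets of abu-8, and of several other genes named below, are of the kinds that Affymetrix marks as able to match related transcripts, so close relatives may share their signal.

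Antimicrobial genes were called above median brightness as well. The caenacin gene cnc-1 had signals of 181, 204 and 145 in control arrays and 413, 384 and 320.4 in aged-particle arrays. Every aged-particle array was well above every control array, and the increase was 2.11-fold (1.08 ± 0.15, limma adjusted p above median brightness = 0.0209). The fungus-induced gene fip-1 had 156, 109.8 and 69.5 in control arrays against 288, 347 and 235 (1.43 ± 0.28, adjusted p = 0.0364). It stood higher than control in the pristine arrays too, at 200, 199.5 and 196.

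The remaining increases called above median brightness were those of srlf-34, C02F4.4 and a probe set that the annotation gives no single gene. The signals of srlf-34 were 3287, 2489 and 1902 in control arrays and 7466, 8255 and 5091 in aged-particle arrays, making it the brightest of the called genes (1.44 ± 0.28, limma adjusted p above median brightness = 0.0364). C02F4.4 went from 211, 166 and 146 to 328, 389 and 387 (1.09 ± 0.17, adjusted p = 0.0236). The unnamed probe set differed by 1.59 (adjusted p = 0.0162). In none of these did the 2 groups overlap.

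Decreases called above median brightness concerned egl-30, fnip-2 and nol-53. The gene egl-30 codes for the alpha subunit of the Gq class of heterotrimeric G proteins, which drives neurotransmitter release and egg laying. Its brighter probe set read 649, 502 and 665 in control arrays and 338, 267 and 231 in aged-particle arrays. Its other probe set read 306, 293 and 240.5 against 154, 167 and 135. Both probe sets thus separated the groups, with differences of −1.12 ± 0.18 and −0.88 ± 0.15 (limma adjusted p above median brightness = 0.0262 and 0.0471).

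The gene fnip-2, a homolog of the folliculin-interacting proteins, read 1393, 1454 and 1339 in control arrays and 897, 644 and 784 in aged-particle arrays. The control arrays were tightly grouped and far above the others (−0.86 ± 0.11, limma adjusted p above median brightness = 0.0236), and its other probe set gave −0.69. For nol-53 the aged-particle arrays lay at 423, 415 and 406, almost level, under control arrays at 891, 828 and 618 (−0.89 ± 0.11, adjusted p = 0.0236). Over all probe sets the adjusted p was 0.112 for each of these 2 genes.

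**Figure D2:**
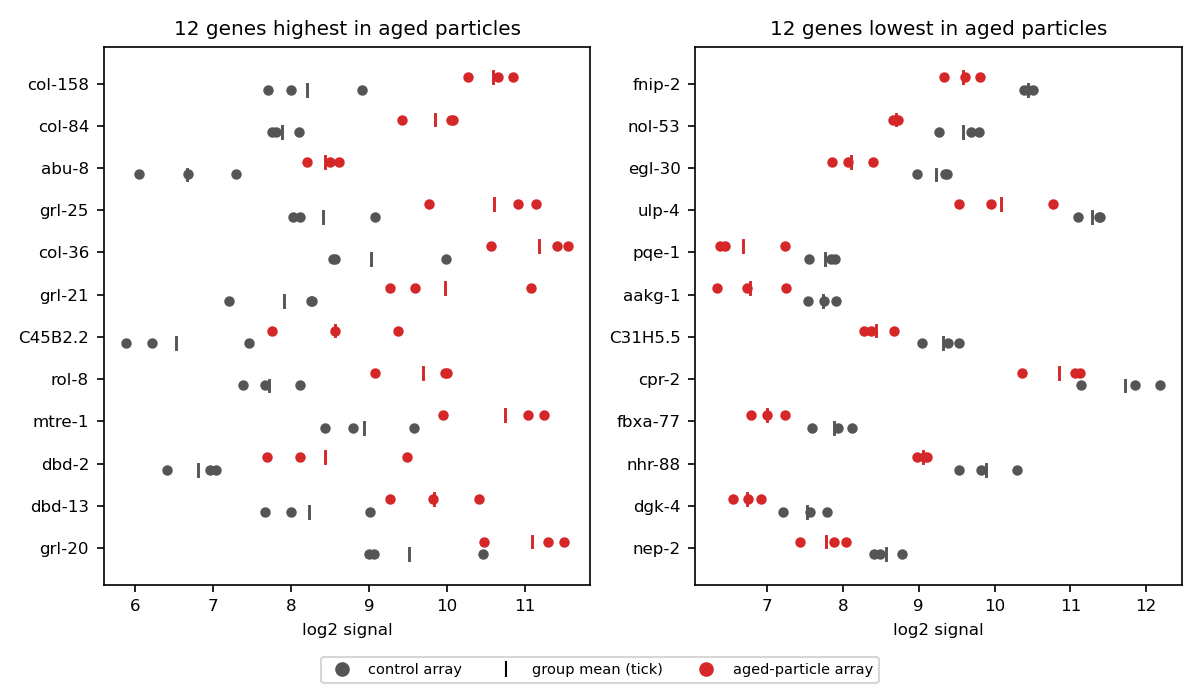
Log2 signal of every control (grey) and aged-particle (red) array, with the group mean as a tick. The genes are the 12 highest and 12 lowest by difference among probe sets above median brightness that had an unadjusted limma p under 0.05 and groups that did not overlap. Aged-particle arrays spread widely for grl-21 and dbd-2, where replicate 2 is the highest, and lie close together for nol-53 and nhr-88.

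The largest differences at well-measured levels included those of 4 collagens and 3 ground-like genes. The 12 genes shown as highest were taken from 325 that met the rule of level, unadjusted p and separation. Their separation is thus a condition of the choice, and 5.16% of the probe sets above median brightness were wholly above control and 7.89% wholly below. Beside col-158, col-84 and abu-8, which were called, the ground-like genes grl-25, grl-21 and grl-20, the collagens col-36 and rol-8, and mtre-1, C45B2.2, dbd-2 and dbd-13 made up the 12, and none of these 9 passed an adjusted threshold. The gene grl-25 read 259.8, 537 and 277 in control arrays and 874, 1921 and 2259.9 in aged-particle arrays (2.20 ± 0.79), and its other probe set differed by 1.31. For grl-20 the control signals were 511, 1407 and 535 and the aged-particle signals 1422, 2512 and 2906 (1.58 ± 0.53). Control array 2 of grl-20 nearly reached the lowest aged-particle array. The same pattern, with control array 2 and aged-particle arrays 2 and 3 high, held for col-36, at 370.4, 1016 and 378 against 1514, 2718 and 3007 (2.15 ± 0.53).

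For rol-8, a collagen gene whose mutants roll along their long axis, signals were 202, 277 and 167 in control arrays and 539, 1026 and 1006 in aged-particle arrays (1.96 ± 0.57). Its other probe set gave 1.74. The gene grl-21 read 306, 148 and 309 against 769, 2150.3 and 613 (2.06 ± 0.55). Here aged-particle array 2 alone lay far above the rest. The same array was highest for C45B2.2, dbd-2 and dbd-13, whose differences were 2.04, 1.63 and 1.60, whereas mtre-1 (1.81) was highest in aged-particle array 3. Unadjusted limma p-values of these 9 genes ran from 0.00292 for col-36 to 0.0415 for dbd-2.

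The 12 lowest genes, taken from 473 that met the same rule, were smaller in difference and belonged to no common family. The lowest was ulp-4, which codes for a protease that removes the SUMO tag from proteins. It read 2206, 2670.1 and 2674 in control arrays and 1754, 742 and 989.8 in aged-particle arrays (−1.20 ± 0.28). Its still brighter other probe set differed by −0.03, so its probe sets disagree. The cathepsin B-like protease gene cpr-2 read 2261, 3704 and 4641 against 2142, 1315 and 2227 (−0.88 ± 0.33), with a control array just above the aged-particle arrays. It was at −1.67 in pristine-particle and −0.88 in silver nitrate animals against the same control arrays.

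For aakg-1, a gamma subunit of AMP-activated kinase, the difference was −0.96 ± 0.21, with −0.77 and −0.08 in its other probe sets. The nuclear hormone receptor gene nhr-88 read 904, 1256 and 743 against 554, 538 and 506 (−0.83 ± 0.18), while its 3 other probe sets gave −0.12, −0.20 and −0.48. For pqe-1, a gene known to modify polyglutamine toxicity, −1.08 was set beside −0.52 and −0.01, and for the diacylglycerol kinase gene dgk-4 −0.79 beside 0.03. In 5 of the 12 genes at least 1 other probe set thus lay near no difference. C31H5.5 (−0.88), the F-box gene fbxa-77 (−0.88) and the neprilysin-like peptidase gene nep-2 (−0.78) had 1 probe set each.

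Cuticle collagens as a family lay higher in aged-particle animals. Of 146 measured collagens, 106 were higher and 33 lower, and 7 were at the floor in all 6 arrays. The median difference was 0.37, beside −0.02 over all genes. In 49 collagens (33.6%) all 3 aged-particle arrays lay above all 3 control arrays, where 4.52% of all genes did so. The reverse held for 3 (2.05%), against 6.65% of all genes. At an unadjusted limma p under 0.05, 45 were higher and 4 lower, beside 3.58% and 4.72% of all genes, and the counts were 27 and 1 without aged replicate 2. The mean collagen level less the control mean was −0.14, 0.07 and 0.08 in control arrays and 0.36, 0.70 and 0.50 in aged-particle arrays, so every aged-particle array stood above every control array and replicate 2 stood highest.

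**Figure D3:**
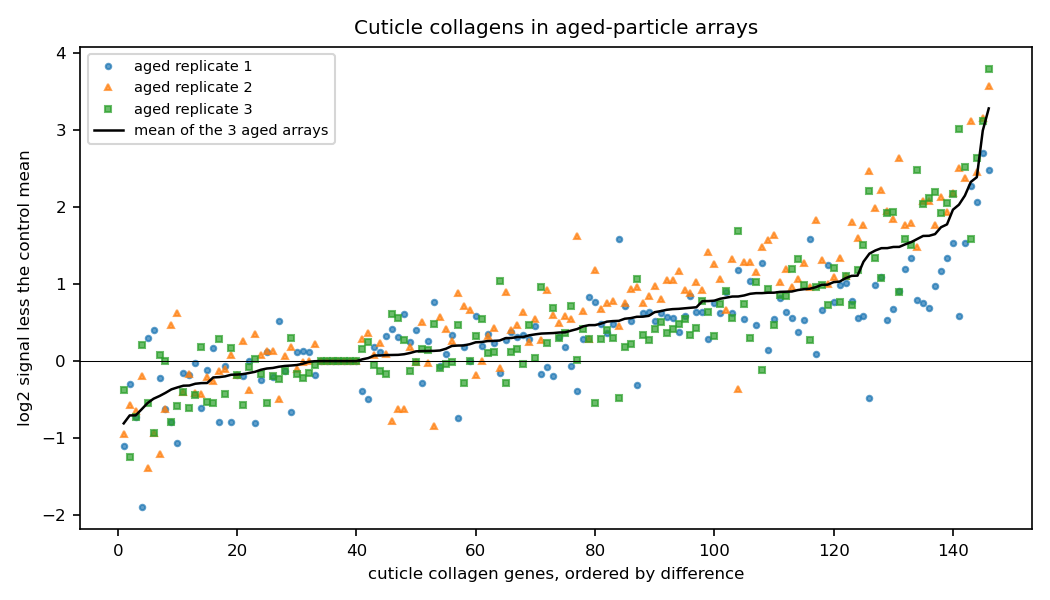
Log2 signal less the control mean for each of 146 cuticle collagen genes, ordered by difference, in aged-particle replicates 1 to 3 (points) with their mean (line). Most of the line lies above 0, it ends at 3.28, and replicate 2 is often the highest point.

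Collagens of very different levels took part, though not the brightest. The highest difference of any collagen was that of col-45, named after its values were seen, at 3.28 ± 0.56 with 2 control arrays at the floor (limma adjusted p = 0.181). The collagen col-114 read 96.4, 207 and 110.3 in control arrays and 329, 497 and 539.5 in aged-particle arrays (1.77 ± 0.30, adjusted p = 0.181). Without control replicate 2 col-114 passed, at an adjusted p of 0.0304. Among bright collagens, sqt-3, whose mutants are squat or dumpy, differed by 0.81 ± 0.20 and col-12 by 0.58 ± 0.16, neither past the adjusted threshold. The still brighter col-93, col-160 and col-125 differed by 0.07, 0.11 and 0.20, with overlapping groups. Collagens that lay wholly lower were bli-1, a strut collagen of the adult cuticle, at −0.81 ± 0.30, col-140 at −0.71 and col-153 at −0.32.

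The furrow collagens, which form the circumferential grooves of the cuticle, were all higher, 5 of 5 with a median of 0.84. The gene dpy-9 read 16, 16 and 23.7 in control arrays and 88.0, 159 and 54.6 in aged-particle arrays, at least 5.01-fold (limma adjusted p = 0.491). Its relatives dpy-2, dpy-7 and dpy-8 differed by 0.84, 0.85 and 0.78, with unadjusted p of 0.192, 0.276 and 0.272. Replicate 2 was the highest aged-particle array in each of these 4 genes. Of the adult-stage collagens, col-119 read 5576, 6109.9 and 5619.8 against 7424, 9772 and 7653 (0.51 ± 0.11, adjusted p = 0.26). The adult collagen col-19 was dim in both groups and differed by −0.10 ± 0.35.

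Most hedgehog-related genes lay higher as well. Of 80 measured, 57 lay higher and 22 lower, with a median of 0.25. In 21 of them (26.2%) the aged-particle arrays were wholly above control, beside 4.52% of all genes, and in 0 were they wholly below, a separation of arrays and not a limma test. At an unadjusted limma p under 0.05, 19 were higher and 1 lower. Without aged replicate 2 the median was 0.13 and those counts were 13 and 2. Within the family the ground-like genes had 10 of 30 wholly above (median 0.61), the groundhog genes 6 of 12 (median 0.41) and the warthog genes 3 of 10 (median 0.59). All 10 warthog genes lay higher. The patched-related receptors, coded by ptr genes, had 2 of 24 wholly above with a median of 0.03.

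The patched-related gene ptr-1 read 75.6, 60.8 and 64.7 in control arrays and 138, 120.0 and 118 in aged-particle arrays (0.91 ± 0.16, limma adjusted p = 0.181). For grd-7 the signals were 56.1, 59.0 and 45.3 against 111, 103 and 136 (1.12 ± 0.24, adjusted p = 0.253). Both genes were separated by a clear gap, and both passed with the floor at 64 (adjusted p = 0.0145 for each). The groundhog gene grd-9 was at least 2.39-fold higher (adjusted p = 0.197), from 16.3, 30.3 and 16 to 38.4, 53.8 and 52.3, and it passed without control replicate 2 (adjusted p = 0.00493).

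Genes of the pharyngeal cuticle lay higher too, 52 of 74, with a median of 0.14. In 18 of them (24.3%) all aged-particle arrays were above control and in 3 (4.05%) below, beside 4.52% and 6.65% of all genes. The shift was unequal among the families: 7 of 11 abu genes were wholly above with a median of 1.11, against 5 of 16 idpp genes (0.29) and 6 of 47 pqn genes (0.11). The gene abu-10 read 126, 59.6 and 76.1 in control arrays and 195, 277 and 192 in aged-particle arrays (1.39 ± 0.30, limma adjusted p = 0.26). Near the other end, pqn-39 and pqn-70 differed by −0.37 and −0.28. The median of the whole list was 0.09 without control replicate 2 and 0.22 without aged replicate 3. Among pharynx markers, the gland gene phat-5 read 397, 178 and 439.8 against 864, 1038 and 700.3 (1.45 ± 0.38), and phat-2 differed by 1.02 ± 0.32. Over the 14 pharynx markers, 7 lay higher and 7 lower, and their part in the abu result was not tested.

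Other genes of cuticle renewal were mixed. Of 36 molting genes, 23 lay higher with a median of 0.13. Wholly above control were 5 (13.9%) and wholly below 2 (5.56%), beside 4.52% and 6.65% of all genes. The gene bli-5, whose loss blisters the cuticle, was at the floor in all 3 control arrays and read 40.8, 49.6 and 28.6 in aged-particle arrays, at least 2.42-fold higher (limma adjusted p = 0.112). Every pristine-particle and silver nitrate array had bli-5 at the floor too, so in the main fit only its aged-particle arrays gave spread. The gene passed with the floor at 1 (limma adjusted p = 0.0128) and without aged replicate 3 (0.000516). In the latter fit its spread came from aged replicates 1 and 2 alone. The protease inhibitor gene mlt-11 read 145, 97.2 and 152 against 264, 501 and 289.8 (1.39 ± 0.43, adjusted p = 0.442), and the apical matrix gene noah-1 differed by 0.91 ± 0.44. The list's median was 0.05 without aged replicate 2, 0.08 without control replicate 3 and 0.01 among probe sets above median brightness.

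Of 34 cuticlins, 17 lay higher and 16 lower with a median of 0.00. In 4 (11.8%) all aged-particle arrays were above control and in 2 (5.88%) below, beside 4.52% and 6.65% of all genes. The highest was cut-1, a cuticlin known from the dauer cuticle, at 17.7, 60.5 and 34.6 in control arrays and 121, 292 and 264 in aged-particle arrays (2.66 ± 0.45, limma adjusted p = 0.18). Its aged-particle arrays were all above 100 and its control arrays all below it. Astacin metalloproteases, some of which digest the old cuticle, had 6 of 33 (18.2%) wholly above and 4 (12.1%) wholly below, with a median of 0.00. Among 14 genes of surface glycosylation, known as bus and srf genes from their altered response to pathogens, 10 lay higher with a median of 0.39. Only 2 of the 14 were above median brightness, and with the floor at 64 the median was 0.00. The gene bus-12 differed by 1.50 ± 0.44 and bus-24 by 1.24 ± 0.47, while bus-1 was at −0.66 ± 0.23.

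The epidermis itself was not marked by a like shift of its markers. Of 18 epidermis markers, 7 lay higher and 11 lower, with a median of −0.08, which was 0.00 without control replicate 1, −0.12 without control replicate 3, and −0.04 and −0.03 without aged replicates 1 and 3. The markers wholly above control were the collagens rol-6 (1.11 ± 0.55) and dpy-7, while the GATA factor gene elt-3 read 1934, 2506 and 2087 against 1889, 2051 and 1779.9 (−0.18 ± 0.11). The molting-cycle regulator nhr-23 differed by 0.31 ± 0.21 with overlapping groups. Mean marker levels less the control mean were 0.07, −0.01 and −0.06 in control arrays and −0.03, 0.20 and 0.01 in aged-particle arrays.

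Genes that anchor muscle to the cuticle lay higher, 7 of 9 with a median of 0.44. The gene mup-4, which codes for an epidermal transmembrane protein of these anchors, read 232, 218 and 262 in control arrays and 573, 504 and 405 in aged-particle arrays (1.05 ± 0.30, limma adjusted p = 0.406). Its other probe set gave 1.12. The related mua-3 differed by 0.63 ± 0.20 and the intermediate filament gene ifb-1 by 0.44 ± 0.17. In 4 of the 9 (44.4%) all aged-particle arrays were above control, beside 4.52% of all genes.

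Body wall muscle markers lay higher in 23 of 30 genes with a median of 0.30. In 7 (23.3%) the aged-particle arrays were wholly above control, beside 4.52% of all genes. Among these 7 were unc-112 (0.54 ± 0.17), dim-1 (0.49 ± 0.16), unc-87 (0.49 ± 0.17) and pat-4 (0.29 ± 0.07), which code for proteins of the attachment sites and thin filaments. The gene unc-87 read 9277, 5775 and 8038 against 11019.8, 9989 and 10889.8. Control array 1 stood apart in this list: mean levels were 0.19, −0.12 and −0.07 in control arrays and 0.34, 0.33 and 0.15 in aged-particle arrays, so that array lay above aged-particle array 3. Leaving out control replicate 2 gave a median of 0.18, and leaving out control replicate 1 gave 0.43.

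Antimicrobial genes of the epidermis lay higher in 24 of 31, with a median of 0.25. In 14 (45.2%) every aged-particle array was above every control array and in 0 the reverse held, beside 4.52% and 6.65% of all genes. An unadjusted limma p under 0.05 was found for 13 in the upward direction and for 0 in the other. Without aged replicate 2, 11 genes had such a p and the median was 0.22, and without control replicate 2 and aged replicate 3 it was 0.39 and 0.40. The caenacins made up 5 of the 14 and the nlp genes 6. The gene cnc-5 read 25.1, 16 and 32.7 in control arrays and 69.0, 69.4 and 81.6 in aged-particle arrays, at least 3.1-fold (limma adjusted p = 0.197). The pristine arrays of cnc-5, at 50.9, 46.1 and 50.8, lay between the groups. For nlp-26 the signals were 86.8, 72.4 and 80.5 against 149, 193 and 173 (1.10 ± 0.20, adjusted p = 0.197). The infection-responsive nlp-29, nlp-30 and nlp-31 differed by 0.48 ± 0.13, 0.89 ± 0.25 and 0.42 ± 0.14.

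Other immune families did not show such a share. Of 220 C-type lectins 9 were wholly above and 9 wholly below (4.09% each), close to the shares over all genes. Among them clec-139 read 361, 379 and 429 against 693, 706 and 531 (0.72 ± 0.16), and clec-85 differed by −0.60 ± 0.16. Of 16 lysozymes 1 was wholly above and 1 below (6.25% each). Of 45 intestinal immune genes 2 (4.44%) were above and 5 (11.1%) below, beside 4.52% and 6.65% of all genes. In this list irg-2 lay at 1.02 ± 0.32 and the saposin-like spp-18 and spp-16 at −0.24 and −0.35.

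Most neuropeptide genes lay slightly lower. Of 53, 46 were lower and 6 higher with a median of −0.14, and in 10 (18.9%) all aged-particle arrays were below all control arrays, beside 6.65% of all genes. The gene flp-24 read 7147, 8833 and 7562 in control arrays and 5952, 6636 and 5911 in aged-particle arrays (−0.34 ± 0.10, limma adjusted p = 0.402). The gene nlp-2 read 1229.7, 1616 and 1469 against 1066, 958 and 1206 (−0.41 ± 0.12, adjusted p = 0.411). Control array 2 was the highest of the 6 in both genes, and over the list its mean was 0.18 above the control mean. Without it the median was −0.04. The neuron markers had a median of −0.07, which was 0.00 and −0.03 without control replicates 1 and 2, −0.12 without control replicate 3 and −0.02 without aged replicate 3. In 3 of 30 the arrays were wholly below, among them the neuronal gene rgef-1 (−0.77 ± 0.16, adjusted p = 0.248).

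Guanylyl cyclases, many of them sensory receptors, lay lower in 26 of 32 genes with a median of −0.27. In 4 (12.5%) the aged-particle arrays lay wholly below control, beside 6.65% of all genes. One of them was gcy-3, at 282, 318 and 285 against 163, 206 and 205 (−0.63 ± 0.18). Only 9 of the 32 were above median brightness. The list's mean was −0.20, −0.27 and −0.19 in the 3 aged-particle arrays, while no control array departed from 0 by more than 0.01. The median was −0.13 without aged replicate 1 and −0.11 with the floor at 64. In the insulin pathway the receptor gene daf-2 read 187, 192 and 137 against 95.1, 87 and 56.2 (−1.14 ± 0.20, limma adjusted p = 0.181). A dimmer daf-2 probe set gave −1.33, and the remaining 2, near the floor, gave 0.42 and 0.25. The insulin-like gene ins-33 differed by 0.73 ± 0.20, and over the 31 genes of the pathway the median was −0.06. Of these, 2 lay wholly above control (6.45%) and 5 wholly below (16.1%), beside 4.52% and 6.65% of all genes.

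**Figure D4:**
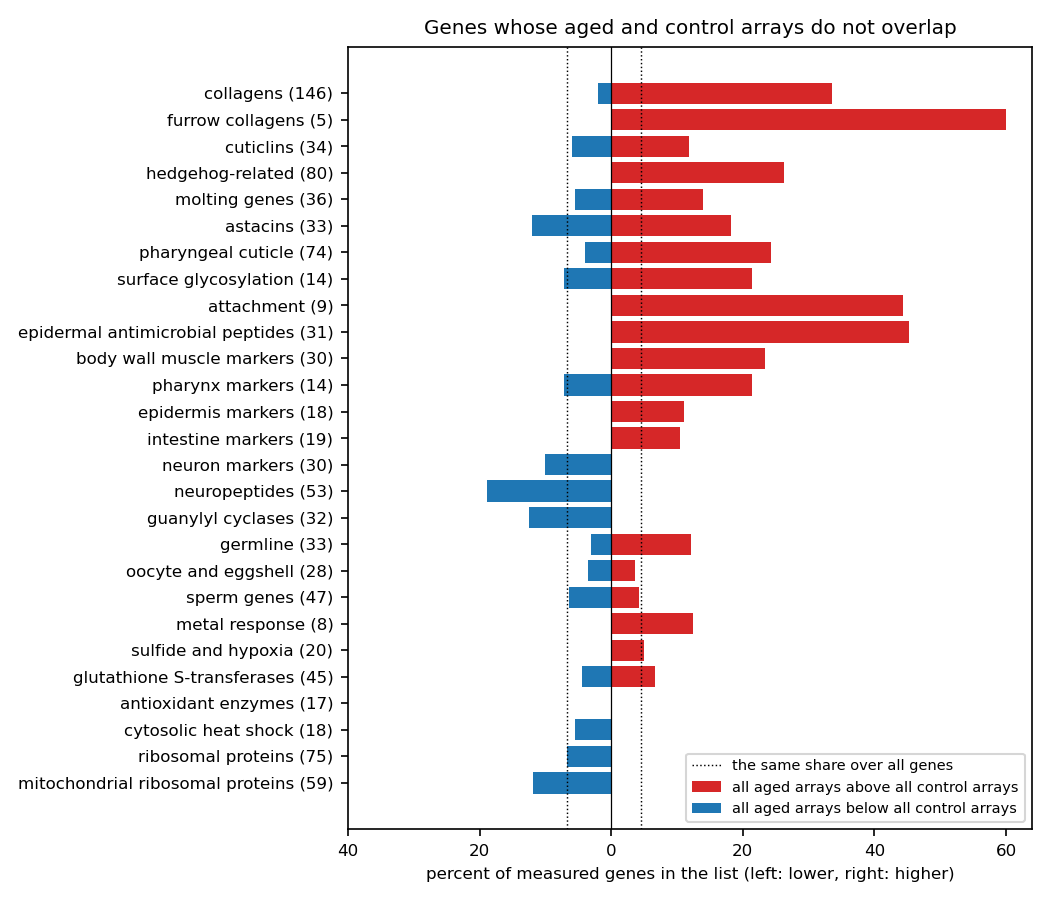
Percent of measured genes in a list whose 3 aged-particle arrays all lay above (red, right) or below (blue, left) all 3 control arrays, with the number of genes in brackets and the shares over all genes (4.52% and 6.65%) as dotted lines. The furrow collagen, antimicrobial, attachment and collagen lists extend farthest to the right, and neuropeptides farthest to the left. Cuticlins, molting genes and astacins extend less far to the right, and antioxidant enzymes have none on either side.

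Most ribosomal genes were lower by small amounts, but the array means of these lists overlapped between the groups. Of 75 cytosolic ribosomal protein genes 68 lay lower, with a median of −0.10, and 5 (6.67%) were wholly below, the share of all genes. For mitochondrial ribosomal proteins 47 of 59 lay lower with a median of −0.11 and 7 (11.9%) wholly below, as for mrpl-2 (−0.41 ± 0.15) and mrps-23 (−0.27 ± 0.07). Mean cytosolic levels less the control mean were −0.13, 0.10 and 0.03 in control arrays and −0.01, −0.09 and −0.16 in aged-particle arrays. For the mitochondrial list they were −0.03, 0.16 and −0.13 against −0.12, −0.13 and −0.09. Genes of a list move together within an array, so counts of lower genes carry this array spread. Without control replicate 2 both medians were −0.05, and without control replicate 1 and aged replicate 3 that of the cytosolic list was −0.16 and −0.06.

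Genes that respond to metals were little different. The metallothionein gene mtl-2 read 9629, 11424 and 10679 in control arrays and 7887, 7642 and 10634 in aged-particle arrays (−0.29 ± 0.14), and mtl-1 differed by −0.12 ± 0.10, both with overlapping groups. Both genes were already bright in control animals. Of 8 metal-response genes, cdr-4 was the 1 wholly above (12.5%, beside 4.52% of all genes). It read 197, 186 and 157 against 284, 276 and 234 (0.56 ± 0.13, limma adjusted p = 0.304). The zinc transporter gene zipt-15 was lower, at 633, 666 and 695 against 408, 447 and 321 (−0.77 ± 0.15, adjusted p = 0.197). Among iron genes, the divalent metal importer smf-2 was at least 2.14-fold lower near the floor (adjusted p = 0.405), and the iron exporter fpn-1.1 differed by −0.30 ± 0.09.

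Genes of sulfide and hypoxia responses, listed because the particles are called sulfidized, had 12 of 20 higher and a median of 0.08. The hypoxia-induced receptor gene nhr-57 was the 1 gene wholly above (5%, beside 4.52% of all genes). It read 462, 626 and 509 against 810.0, 1231 and 693 (0.74 ± 0.29, limma adjusted p = 0.541). The gene cysl-2 read 1566, 2072 and 1708 against 1707, 4329 and 2182 (0.51 ± 0.31). Aged-particle array 2 was far above the others there. The list's median was −0.07 without that array, 0.04 without control replicate 1, and 0.17 and 0.14 without aged replicates 1 and 3.

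Few classical stress genes had separated groups. In 17 antioxidant enzymes no gene was wholly above or below, and the superoxide dismutase gene sod-3 read 131, 171 and 115 against 170.2, 179 and 177. Of 18 cytosolic heat shock genes 9 lay higher and 9 lower, and only hsf-1, the heat shock factor gene, was wholly below (−0.26 ± 0.18), though its other probe set was at 0.22. In 19 genes of endoplasmic reticulum stress 1 was above, pdi-3 (0.29 ± 0.10), and 1 below, cnx-1 (−0.41 ± 0.14), and hsp-4, the main chaperone reporter of this response, differed by 0.20 ± 0.15. Of 45 glutathione S-transferases 3 were above, among them gst-41 (0.42 ± 0.12) and gst-24 (0.37 ± 0.13), and 2 below, 6.67% and 4.44% beside 4.52% and 6.65% of all genes. These results concern a single time after 48 h, and earlier times were not measured.

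Families of xenobiotic metabolism were mixed in the same way. Of 64 UDP-glucuronosyltransferases 4 were wholly above (6.25%) and 5 below (7.81%), beside 4.52% and 6.65% of all genes. The gene ugt-7 read 138, 142 and 112.4 against 56.2, 74.7 and 68.6 (−0.98 ± 0.17, limma adjusted p = 0.181), and ugt-29 differed by 1.27 ± 0.35. Of 73 cytochrome P450 genes 7 were above (9.59%), with cyp-31A5 at 0.94 ± 0.20, and 6 below (8.22%), with cyp-13A3 at −0.74 ± 0.22. Carboxylesterases lay higher in 24 of 32 with a median of 0.17, but only 2 were wholly above. The median of that list was 0.29 without aged replicate 3 and 0.11 without aged replicate 1 or control replicate 3.

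Yolk genes were measured at low levels. The vitellogenins vit-1, vit-2 and vit-5, yolk genes of the adult intestine, had probe sets with 1 gene at or near the floor in all 6 arrays, the highest value being 38.5. The gene vit-6 read 113, 128 and 148 in control arrays and 113.9, 110.1 and 136 in aged-particle arrays. The yolk genes thus give no view of the reproductive effect to which the exposures were matched. In the germline list 22 of 33 genes were higher (median 0.08). The gene ife-5, which codes for a cap-binding protein of the germline, read 31.5, 19.9 and 21.6 against 72.4, 55.9 and 74.4 (1.49 ± 0.23, limma adjusted p = 0.161). The median of that list was 0.20, 0.02 and 0.03 without control replicates 1 to 3 and lay between 0.08 and 0.12 without each aged-particle array. The mean germline level less the control mean was 0.22 in control array 1, beside 0.23, −0.01 and 0.24 in the aged-particle arrays. Major sperm protein genes had a median of −0.21, which was 0.01 without control replicate 3, −0.36 without control replicate 1 and −0.06 without aged replicate 2. Of these 23 genes 1 was wholly below (4.35%, beside 6.65% of all genes).

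Other lists of metabolism and regulation were spread around 0. Of 254 nuclear hormone receptor genes 7 were wholly above control (2.76%) and 13 below (5.12%), with a median of −0.03. Over all genes these shares were 4.52% and 6.65%. Of 64 genes of lipid metabolism 4 were above and 4 below (6.25% each). The fatty acid elongase gene elo-4 read 94.9, 161 and 176 against 278, 329.6 and 339. All its aged-particle arrays lay well above control (1.18 ± 0.28, limma adjusted p = 0.312). ABC transporters had 5 of 56 above (8.93%) and 2 below (3.57%), and lysosomal proteases and proton pump genes 3 of 42 (7.14%) and 2 (4.76%). The 19 intestine markers had 2 above (10.5%) and 0 below. The propionate breakdown list of 15 genes and the glutathione and thioredoxin list of 17 had 0 genes wholly above, and 0 and 1 below. Zinc and copper genes had a median of 0.10, which lay between 0.00 and 0.08 as each of the 6 arrays was left out and was lowest without aged replicate 1 (0.00) and control replicate 3 (0.01). Of these 22 genes 2 were wholly above control (9.09%) and 1 wholly below (4.55%). Iron and heme genes had a median of 0.00. Of these 20 genes 1 was wholly above (5%) and 3 wholly below (15%), beside 4.52% and 6.65% of all genes.

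Of the oocyte, meiosis, sperm and early embryo lists, 1, 3, 2 and 0 genes lay wholly above control and 1, 1, 3 and 1 below. The shares above were 3.57%, 9.09%, 4.26% and 0%, beside 4.52% of all genes. Those below were 3.57%, 3.03%, 6.38% and 7.69%, beside 6.65%. The 4 lists had medians of 0.14, 0.06, −0.12 and −0.14. Single arrays moved these medians: that of the oocyte list was −0.03 without control replicate 2 and 0.07 without aged replicate 1 or 3, and for meiosis, leaving out control replicates 1, 2 and 3 gave 0.11, 0.04 and 0.10, and leaving out aged replicates 2 and 3 gave 0.14 and 0.00. The sperm median was −0.06 and −0.05 without control replicates 1 and 3 and −0.08 without aged replicate 1, and the early embryo median was −0.09 without control replicate 3 and −0.06 without aged replicate 2. Replication genes had a median of 0.10, and, beside 4.52% and 6.65% of all genes, 6 of 31 (19.4%) lay wholly above control and 2 below. Among them pri-1, a DNA primase subunit gene, differed by 0.51 ± 0.12, rnr-1, of ribonucleotide reductase, by 0.33 ± 0.08, and pcn-1, the replication clamp gene, by 0.37 ± 0.13. Leaving out control replicate 1, control replicate 3 or aged replicate 2 gave a median of 0.22, 0.18 or 0.17. No gene of the list passed an adjusted threshold.

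Gene classes were also ranked without any list. A class is named by the letter prefix of its gene symbols, and 165 classes had at least 10 measured genes. The classes with the highest share of genes wholly above control were abu (63.6%), dbd (61.5%), grd (50%), grl (33.3%), col (32.8%) and idpp (31.2%), beside 4.52% of all genes. Apart from dbd, these classes are parts of the collagen, hedgehog-related and pharyngeal cuticle lists above, so their rank is no separate support for those lists. In the dbd class 8 of 13 genes were above and 0 below, with a median of 0.63 and with dbd-18 (1.89), dbd-13, dbd-2 and dbd-8 (1.16) highest. The classes with the highest share wholly below were rab (25%), spp (22.2%), dmsr (21.4%), cyn and nstp (20% each) and cdk (18.2%), beside 6.65% of all genes. The shares of dmsr and cyn rest on 3 genes each and those of nstp and cdk on 2, and the nstp class had another 2 of its 10 genes wholly above, with nstp-9 at 1.12. The rab genes code for small GTPases of membrane traffic, and rab-7 differed by −0.52 and rab-21 by −0.36 with unadjusted limma p of 0.0013 and 0.00386.

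Collagens and hedgehog-related genes were higher with aged particles than with either other silver form in the cases that passed. The 3 exposures share their control arrays, so their differences from control are given side by side only. Collagens had a median of 0.37 with aged particles, −0.19 with pristine particles and −0.21 with silver nitrate. The difference between aged-particle and the other exposed arrays needs no control array and was tested in the same limma model. Against pristine particles, 25 probe sets were called (0.111% of those tested), 22 of them higher in aged-particle arrays, and against silver nitrate 57 (0.253%), 47 of them higher. Of the 146 collagens, 9 were called higher than in pristine and 16 higher than in silver nitrate arrays, and 0 lower in either. Of the hedgehog-related genes 2 and 8 were called higher, and 0 lower.

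The collagen col-158 read 116, 61.5 and 47.5 in pristine arrays and lay at the floor in all silver nitrate arrays, so that the aged-particle level exceeded the former by 4.47 ± 0.37 (limma adjusted p = 0.00619) and the latter by 6.59 (adjusted p = 0.000327). For col-84 the differences were 2.90 (adjusted p = 0.0489) and 4.95 (0.00254), and for col-14 1.66 (0.0245) and 1.84 (0.00468). Control animals lay between in each of these 3 genes. The collagen col-114, at 23.6, 20 and 20.3 in pristine arrays, was 4.39 ± 0.30 lower there than with aged particles (adjusted p = 0.00171). The ground-like gene grl-20, which every silver nitrate array had at the floor, was higher with aged particles than with silver nitrate by 7.09 ± 0.53 (adjusted p = 0.00147), while against pristine particles 3.64 did not pass (0.0538). A difference from a group at the floor is a lower bound in size. Such a group also adds no spread to the model, so the standard error and adjusted p can come out too small.

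Some antimicrobial genes and genes that were lower with aged particles passed against another silver form and others did not. The antimicrobial gene fipr-21 was higher than with pristine particles by 0.95 (limma adjusted p = 0.0417) and than with silver nitrate by 0.79 (0.0276). The glucuronosyltransferase gene ugt-9, which lay wholly below control (−0.59), differed from silver nitrate by −1.23 (adjusted p = 0.0154), and mrps-28, of the mitochondrial ribosome, by −0.66 (0.0179). The gene egl-30 was lower than in pristine arrays by 0.79 in its brighter probe set (limma adjusted p = 0.174), and fnip-2 by 0.66 (0.0843). The caenacin gene cnc-1 was higher than with pristine particles by 0.84 (adjusted p = 0.0987) and than with silver nitrate by 0.91 (0.0559). These comparisons of egl-30, fnip-2 and cnc-1 did not pass, which does not show that the forms act alike. C02F4.4 did pass against both, by 1.33 (adjusted p = 0.0489) and 1.23 (0.0267).

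**Figure D5:**
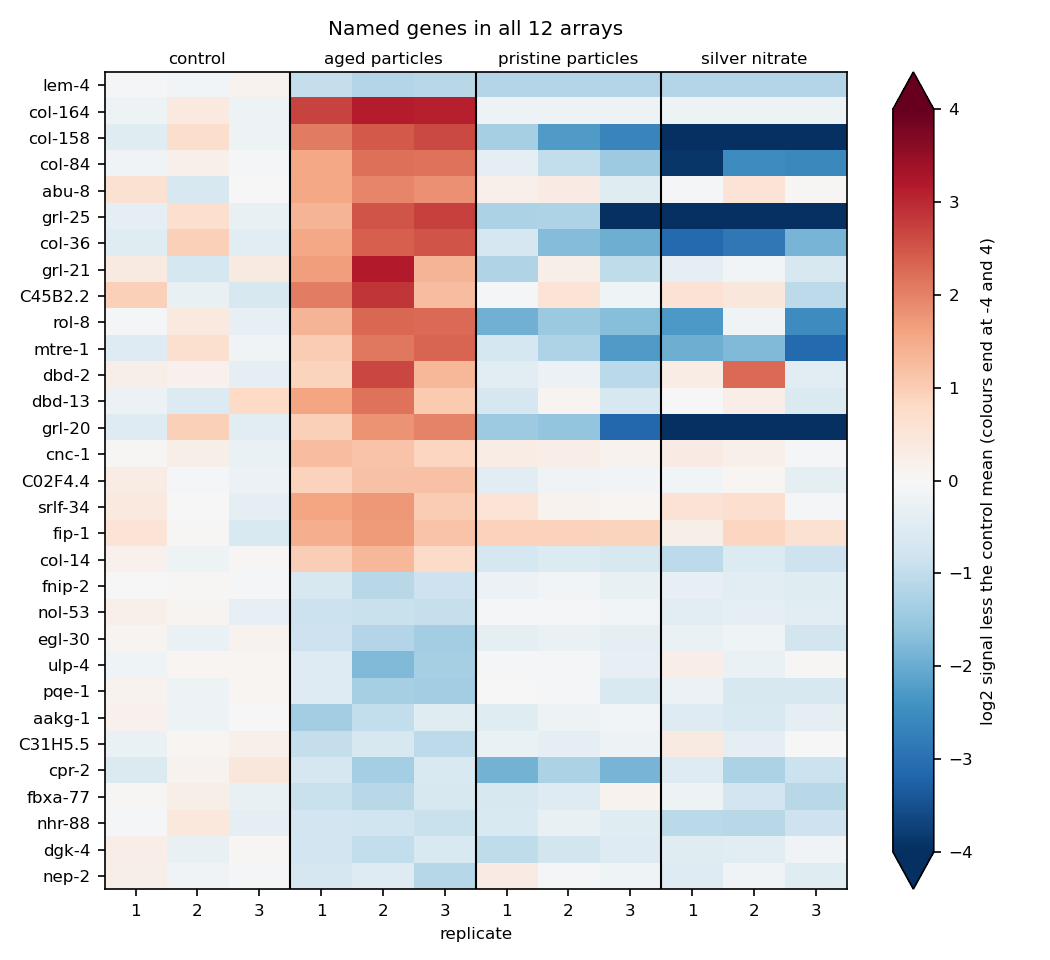
Log2 signal less the control mean (colour, ending at −4 and 4) of the called genes and the 12 highest and 12 lowest genes in all 12 arrays. The collagens and grl-20 and grl-25 are red in the aged-particle columns and blue in the pristine and silver nitrate columns, apart from col-164, which stays near 0 there, whereas fip-1 and lem-4 have the same sign in all 3 exposures.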

How the data were processed

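The values used are probe set intensities on a linear scale, deposited by the authors in the series' value table; the summarisation method and its software are not given in the sources used here. The 2% trimmed mean of each array was 500.1 to 500.2, so the authors' arrays carry a common scaling. No other data were used. Probe sets were named through the platform annotation and RefSeq (table of assembly WBcel235): 20766 had 1 gene, 20701 of them with a RefSeq symbol and 65 with the platform's, 887 had several and 895 none. Of 17118 genes, 2981 had more than 1 probe set and were represented by the brightest.

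Each array was here brought to 1 shared median, floored at 16 and taken to log2. All 12 arrays entered 1 limma model (limma 3.58.1, R 4.3.3) with a mean per group (8 residual and 0.94 prior degrees of freedom), two-sided, with Benjamini-Hochberg adjustment over all probe sets and a threshold of 0.05. Permutation used scipy 1.17.1 (Python 3.11.15). The fit was also run on simulated arrays with independent noise, in which only probe sets above median brightness were changed. That run cannot show how changes below that level, where col-164 and lem-4 lie, are detected. The number of arrays limits the precision. The genes named were those called, those called above median brightness, the 12 highest and 12 lowest of these that had an unadjusted p under 0.05 and non-overlapping groups, and up to 4 members of each of 49 lists with the smallest p; others are marked. The members and lists were chosen with earlier results of these data known. Lists are described by counts and medians without a test. Same-numbered aged-particle and control arrays did not deviate together (r of −0.06, −0.03 and 0.03), so the numbers were not treated as pairs. Alternatives were the deposited scaling, quantile normalisation, floors of 1 and 64, brightness filters, a trend and robust fit, the 6 arrays alone, the replicate block and leaving out each array.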

Additional observations from a re-analysis of the deposited data

How the results depend on the processing

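Limits are 3 arrays a group, a single time and floored dim probe sets. The 2 probe sets called became 4 after quantile normalisation (lem-4, col-164, nol-53 and Y69A2AR.24), 4 with a floor of 1 (bli-5, col-164, idpp-13 and srh-119), 9 with a floor of 64, 0 without the dimmest 25% (limma, 1420 at an unadjusted p under 0.05), 13 above median brightness, 1 with a trend and robust fit (col-164) and 1 with the 6 compared arrays alone (Y53G8AL.3). With the replicate block the limma count was 0 in the 6 arrays (1843 at an unadjusted p under 0.05) and 7 in all 12. At that unadjusted p the block in all 12 had 2059 probe sets, beside 1869 in the main limma fit. Same-numbered aged-particle and control arrays gave no sign of pairing, but a replicate effect shared with the other 6 arrays was not tested. Leaving out each array gave 2 to 16 calls, always with col-164 and lem-4: 7, 16 and 8 without control replicates 1 to 3, 8, 4 and 6 without aged replicates 1 to 3. The 13 calls above median brightness became 28 with the 6 arrays alone and 0 to 22 leaving out each array, alternatives chosen after seeing the data. The 3′ to 5′ difference lay between −0.05 and 0.16 over its leave-one-out fits. Of 219 named probe sets, col-19 alone reversed, to 0.17 without control replicate 3 and 0.13 without aged replicate 3, within a leave-one-out range of −0.43 to 0.17; the cause was not tested. Over 22 alternatives, 4673 values for named probe sets kept direction and side of the threshold, 28 newly passed and 7 no longer passed. List medians kept within the replicate spread in 1040 of their alternatives and moved in 86, the collagen median to 0.52 without the dimmest 25%, the antimicrobial median to 0.48 and the molting median to 0.01 above median brightness, and, at a floor of 64, the hedgehog-related median to 0.08 and the surface glycosylation median to 0.00.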
